A study of Homo sapiens with 8 samples.

Results

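The genes that encode the proteins of the cytosolic ribosome and the factors that start and extend protein chains were followed in L363 cells treated with an inhibitor of NF-κB signalling. Members were the genes of the array annotation whose symbol begins with RPL, RPS, EEF or EIF, without the RPS6K kinases and the EIF4EBP genes, that had values on at least 5 of the 8 arrays. This gave 52 members among 54 genes that met the rule on names, out of 4604 genes named on the array and 4050 with values on 5 or more arrays. They comprised 14 RPS genes for proteins of the small ribosomal subunit, 14 RPL genes for the large subunit, 5 EEF genes tied to elongation and 19 EIF genes tied to initiation. The name rule also took in genes with other roles: RPL22L1, a paralog of RPL22, RPL21P106, a pseudogene, EEF2K and EEF2KMT, a kinase and a methyltransferase that act on elongation factor eEF2, and EIF2AK2 (PKR) and EIF2AK3 (PERK), kinases of initiation factor eIF2. Just inside the threshold on values lay RPL21P106 with 5 arrays. Just outside lay RPL7L1 with 4 arrays (0.13 and 0.59 at 8 h, 0.50 at 12 h and -0.48 at 24 h) and EIF3M with 2.

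A ribosome joins a small subunit, which reads the messenger RNA, to a large subunit, which forms the peptide bonds. Initiation factors bring the messenger RNA, the initiator tRNA and the small subunit together, and elongation factors deliver each further tRNA and move the ribosome along. In vertebrates the messenger RNAs of ribosomal proteins and of several elongation factors begin with a run of pyrimidines, the 5′ terminal oligopyrimidine tract, through which the mTOR pathway controls their translation as a group. Plasma cells and myeloma cells secrete large amounts of immunoglobulin and depend heavily on translation.

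L363 is an established human multiple myeloma cell line. Each array paired Cy5-labelled cDNA from cells treated with 12.5 µM MLN120B at 37 °C with Cy3-labelled cDNA from cells given its solvent DMSO. MLN120B is a small molecule that inhibits IKKβ, the kinase that activates canonical NF-κB signalling. Treatment lasted 8 h in 2 samples, 12 h in 3 samples and 24 h in 3 samples, and the question was what the inhibitor does to expression at each time. The values are log2 ratios, most likely of MLN120B over DMSO, with the median of each array set to 0, so that a gene at 0 has the ratio of the middle feature of its array. The base and the direction are not stated in the sources used here: with the sign turned, every direction given below would reverse. Dyes were never swapped between arrays, and therefore a dye effect on a feature and the treatment cannot be told apart, and no intensities were used here. The labels do not say whether separate cultures were used for the samples of a time; p-values reflect no more than the spread among these samples, and that spread may be technical.

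Arrays carried values for 6344 to 13007 of 15246 features. By the experiment numbers of the database named in the labels, the arrays fall into 3 runs of consecutive numbers, referred to as database runs. Sample 3 of 12 h and of 24 h form run 1. Sample 2 of 8 h and sample 1 of both later times form run 2, and sample 1 of 8 h and sample 2 of both later times form run 3. The arrays of run 2 stood apart, with SDs over features of 1.00 to 1.42 against 0.21 to 0.58 on the other 5. NFKBIA, the NF-κB target that encodes IκBα, checks the inhibitor: it lay below 0 on all 8 arrays, with a mean over the 3 times of -0.93 ± 0.14 (SE, n = 8), and with limma's adjusted p of 0.459 it did not pass. Of 10 plasma cell markers 9 had values, but so did 5 of 6 T cell markers, 5 of 6 myeloid, 4 of 5 erythroid and 4 of 6 stromal markers. A ratio does not show that a gene is expressed, so the label of the cells could not be checked by level.

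The ribosomal protein genes lay above the array median as a group, by a small amount, and no single gene passed the test. Of the 25 ribosomal protein genes tested, 22 had a mean over the 3 times above 0 (median 0.19), where 48.4% of the 5411 rows tested (genes and unnamed features that had values on 2 or more arrays at every time) lay above 0. All 13 RPS genes tested lay above 0, with a median of 0.16, and 9 of 12 RPL genes, with a median of 0.19. The RPS count depended on the setting. It was 8 of 13 without run 1 and in the values as deposited, before centring. It was 10 of 13 without sample 3 at 12 h, and likewise without sample 3 at 24 h. It stayed at 13 without run 2 and with quantile normalization. RPS20, RPS12, RPS21, RPS2 and RPS3 had means from 0.0065 to 0.080, each smaller than its SE (0.12 to 0.18). The 5 EEF genes had 4 above 0 and a median of 0.15, while the 17 EIF genes tested had 8 above 0 and a median of -0.032, which turned to 0.055 with quantile normalization and 0.050 with scale normalization; the median of all rows was -0.0077. In bulk RNA a change in every cell and a change in the share of cells in some state cannot be told apart.

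In limma's test with Benjamini-Hochberg adjustment 0 of the 47 members tested passed for the mean over the 3 times, at 8 h, at 12 h or at 24 h, and the share of all rows that passed was 0.0% in each. The smallest adjusted p among members was 0.869 for the mean, 0.9994 at 8 h, 0.9291 at 12 h and 0.9996 at 24 h. At an unadjusted p under 0.05 stood 5 members for the mean, against 3.4% of rows. These were RPS4X, RPL22L1, EEF1B2, RPS6 and RPL27, all above 0. At 8 h 1 member did so (2.4% of rows), at 12 h 2 members (3.07%), and at 24 h 0 members (2.01%). The count of 5 for the mean depended on the setting. It was 0 of 47 with 1 mean per database run (65 of 5399 rows) and 0 of 42 without run 1 (129 of 3635 rows). With the run as a random block it was 4 of 47 (88 of 5411 rows), and as a fixed block 11 of 47 (638 of 5411 rows). With scale normalization it was 13 of 47 (427 of 5411 rows). The members not tested, for too few values, were RPS15A, RPL11, RPL21P106, EIF3H and EIF4G1.

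**Figure D1:**
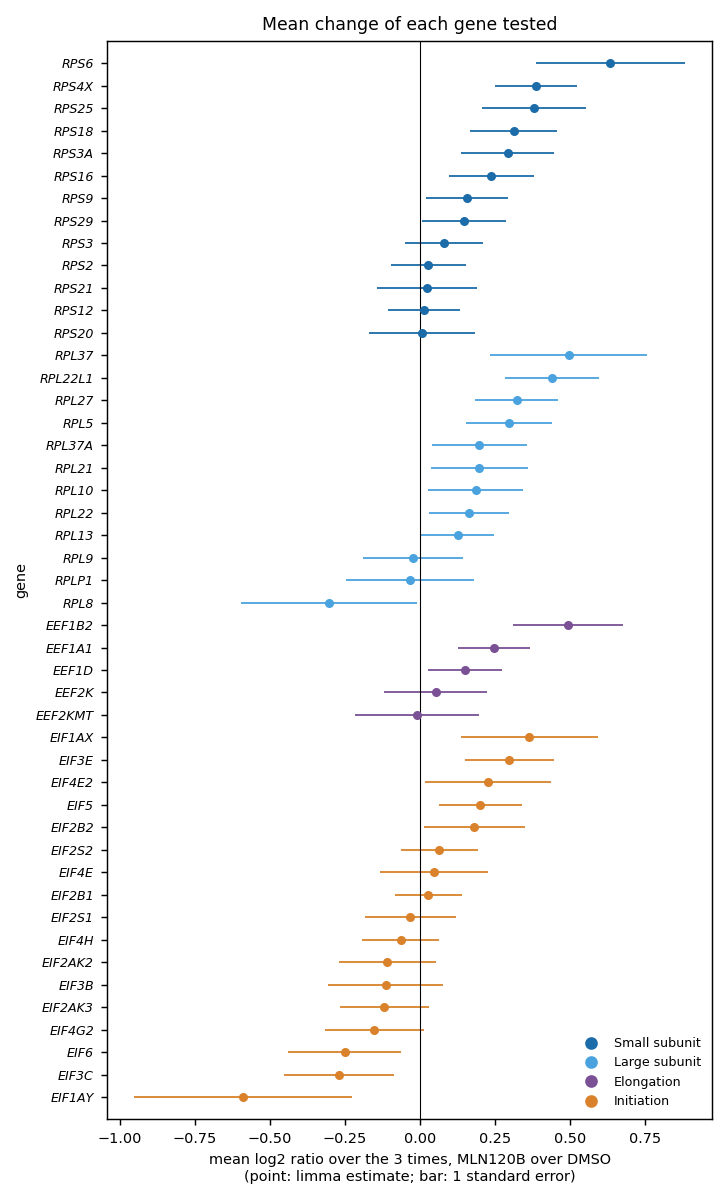
Mean log2 ratio (MLN120B over DMSO, array median 0) over the 3 times for the 47 members tested, with bars of 1 standard error from limma; colours mark small subunit, large subunit, elongation and initiation genes. All 13 small subunit genes lie to the right of 0 in this fit, from RPS6 at 0.63 down to RPS20 at 0.0065. The bars of RPS2, RPS3, RPS12, RPS20 and RPS21 cross 0. The initiation genes spread on both sides from 0.36 (EIF1AX) to -0.59 (EIF1AY).

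Each time gave the ribosomal protein genes a median above 0. At 8 h the median of the 25 genes was 0.21 and 15 lay above 0, against 49.8% of rows. At 12 h it was 0.22 with 23 above 0 (49.5% of rows), and at 24 h 0.12 with 20 above 0 (46.4% of rows). The times did not differ in the test: 0 of 47 members passed for 12 h minus 8 h, 24 h minus 8 h or 24 h minus 12 h (0.0% of rows in each), and 0 members had an unadjusted p under 0.05, where 1.18%, 0.813% and 0.684% of rows did. For 12 h minus 8 h the estimate lay above 0 for 24 of 47 members (49.7% of rows), for 24 h minus 8 h for 22 (45.9%), and for 24 h minus 12 h for 19 (48.3%). Of the members EIF1AY had the smallest p for 24 h minus 8 h, with a difference of 1.40 ± 0.89 (SE) and an unadjusted p of 0.16 in limma's test, which rests on 4 arrays.

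Array by array, the median over the ribosomal protein genes was 0.082 and 0.20 on samples 1 and 2 at 8 h. It was 0.096, 0.089 and 0.66 on samples 1, 2 and 3 at 12 h, and 0.10, 0.034 and 0.28 on samples 1, 2 and 3 at 24 h. All 8 medians were thus above 0, and both arrays of run 1 (sample 3 at 12 h and at 24 h) were higher than the other 6. The mean of the 8 medians was 0.19 ± 0.20 (SD, n = 8), and by run it was 0.47 in run 1, 0.13 in run 2 and 0.068 in run 3. Against the median of all rows of the same array the ribosomal protein median was higher by 0.049 to 0.57, on 8 of 8 arrays. Against the median of the EIF genes it was higher on 7 of 8 arrays, the difference running from -0.056 on sample 2 at 24 h to 0.59 on sample 3 at 12 h.

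**Figure D2:**
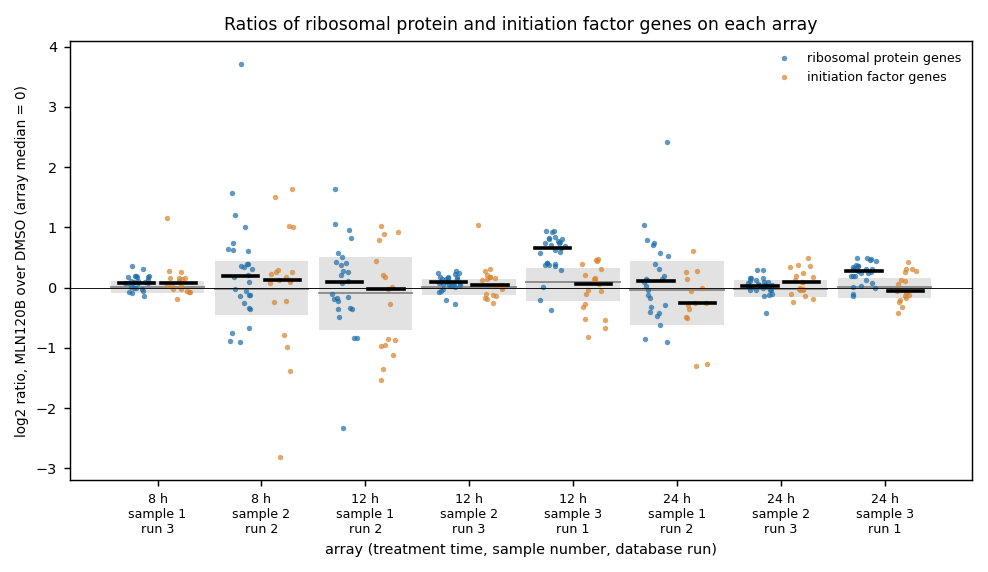
Log2 ratios (MLN120B over DMSO, array median 0) of the ribosomal protein genes (blue) and the initiation genes (orange) on each of the 8 arrays; black bars are the medians of each class, and grey boxes and lines are the middle 50% and the median of all rows. The blue median stands highest above the box of all rows on sample 3 at 12 h, at 0.66, and the points and boxes of the 3 arrays of run 2 are the most spread.

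The ribosomal protein genes stood highest in run 1. On both of its arrays 22 of 26 ribosomal protein genes lay above 0 (84.6%), against 38.6% of rows. On all 3 arrays of run 2 this held for 6 of 26 (23.1%, against 13.1% of rows), and on all 3 arrays of run 3 for 13 of 26 (50.0%, against 25.4%). Averaged within a run, the median over the 28 ribosomal protein genes was 0.39 in run 1, with a range from -0.20 to 0.72. It was 0.079 in run 2, from -1.17 to 1.42, and 0.071 in run 3, from -0.35 to 0.24. Without run 1, 17 of 24 ribosomal protein genes had a mean above 0, where 39.9% of rows did, and the median was 0.10. Without run 2, whose arrays are the widest, 24 of 24 lay above 0 with a median of 0.19, where 51.6% of rows did. Among the EIF genes 6 of 17 lay above 0 on both arrays of run 1 (35.3%, against 38.6% of rows). This held for 3 of 14 on all arrays of run 2 (21.4%, against 13.1%) and for 4 of 18 on all arrays of run 3 (22.2%, against 25.4%). The counts are small, and in runs 1 and 3 the shares were near those of all rows.

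Over 40 members with values on all 8 arrays, Pearson's r lay between 0.11 and 0.62 for the 7 pairs of arrays within a run and between -0.34 and 0.35 for the 21 pairs across runs. Genes are no independent replicates, so these are descriptions. The centring also set the level: in the values as deposited the median of all rows was -0.12, 28.2% of rows lay above 0, and 16 of 25 ribosomal protein genes did, with a median of 0.052. Counts above 0 are therefore relative to the rest of the array.

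**Figure D3:**
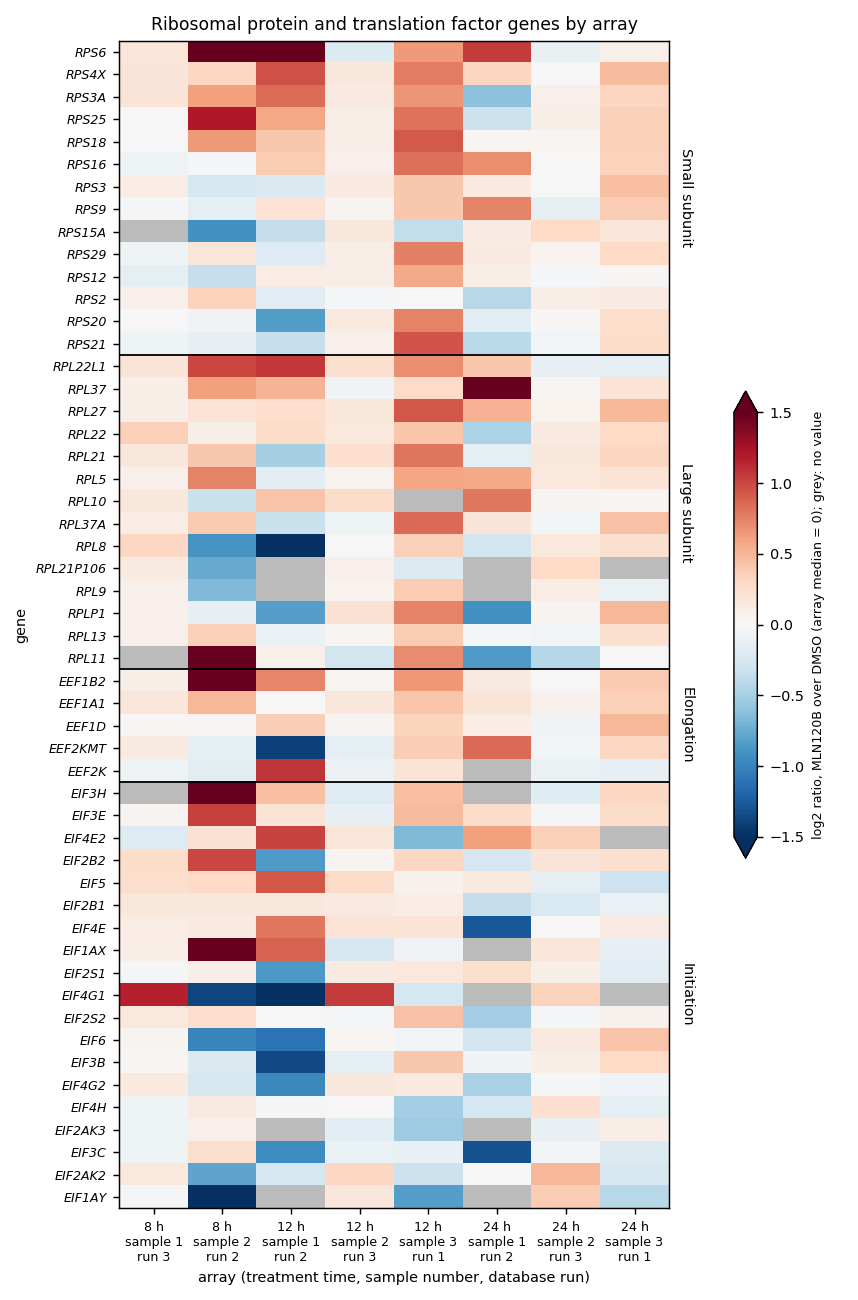
Log2 ratio (MLN120B over DMSO, array median 0) of each of the 52 members (rows) on each array (columns, with treatment time, sample number and database run); red is higher with MLN120B, blue is lower, the colour scale ends at 1.5 on either side, and grey marks no value. The column of sample 3 at 12 h is red in most ribosomal protein rows, and the columns of run 3 are pale but for EIF4G1.

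Few members kept to one side of 0 on every array. Among the 40 members with 8 values, 4 lay above 0 on all 8 arrays (10.0%, against 1.39% of rows), namely RPS4X, RPL27, EEF1A1 and EEF1B2. At their lowest, EEF1B2 was at 0.002, EEF1A1 at 0.0036 and RPS4X at 0.0082, so these genes barely cleared 0. RPS4X, RPL27 and EEF1A1 are averages of 4, 3 and 9 features, while the rows include unnamed single features, so the shares are not fully alike. None of the 40 lay below 0 on all 8, against 1.3% of rows. Counting 7 or 8 of 8 arrays, 11 of 40 members lay above 0 (27.5%, against 6.18% of rows): the 4 above with RPS3A, RPS18, RPS25, RPL5, RPL22, RPL37 and EEF1D. These were 8 of 23 ribosomal protein genes, 3 of 4 EEF genes and 0 of 13 EIF genes.

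The start of transcription is shown for members on both sides of this pattern, since the 5′ pyrimidine tract is the feature that ribosomal protein genes and elongation factors are known to share. RefSeq promoters of the GRCh38.p14 assembly were matched for 40 of the 52 members. A C at an annotated start followed by at least 4 pyrimidines was found in 17 of 21 ribosomal protein genes (81.0%), in EEF1A1 and EEF1B2, in 0 of 16 EIF genes, and in 5.14% of all promoters. The EIF genes EIF2S2, EIF3E and EIF3H had no matched promoter, so whether they have the tract is not known here. Each window below has 30 bases, 15 before and 15 from the annotated start on, 5′ to 3′ on the strand of the gene. Capitals mark the annotated start base and the unbroken run of pyrimidines after it.
RPS6 (chr9:19380222-19380251, minus strand): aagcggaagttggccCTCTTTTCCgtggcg
RPS25 (chr11:119018329-119018358, minus strand): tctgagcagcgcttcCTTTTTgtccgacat
RPS18 (chr6:33272060-33272089, plus strand): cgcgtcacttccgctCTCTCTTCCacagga
RPL22L1 (chr3:170870181-170870210, minus strand): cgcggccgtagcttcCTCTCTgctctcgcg
EEF1A1 (chr6:73521018-73521047, minus strand): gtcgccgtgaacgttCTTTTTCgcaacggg
EEF1B2, downstream start (chr2:206159880-206159909, plus strand): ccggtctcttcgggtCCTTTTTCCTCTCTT
EEF1B2, upstream start (chr2:206159594-206159623, plus strand): gccggaagtggccccAgcctcgaggccggg
RPS4X (chrX:72277234-72277263, minus strand): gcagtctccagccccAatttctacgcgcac
RPL27 (chr17:42998404-42998433, plus strand): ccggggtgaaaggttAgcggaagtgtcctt
EIF3C (chr16:28688543-28688572, plus strand): ctctgtcccacccccGTggcaggcagccct
EIF2B1 (chr12:123633672-123633701, minus strand): gaggggtacggaagtGCgccggaagtgggg

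In RPS6, RPS25, RPS18, RPL22L1 and EEF1A1 the capitals open with C and run on in pyrimidines, while EIF3C and EIF2B1 have no such run. RPS4X and RPL27, which lay above 0 on every array, have an annotated start at an A and no tract at that base. Annotated starts differ from the true ones by a few bases in many genes, and with a tract allowed within 15 bases of the start 90.5% of the ribosomal protein genes and 48.5% of all genes with promoters had one.

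Among tested ribosomal protein genes with the tract at the start 15 of 16 had a mean above 0 (median 0.19), and among those without 3 of 4, with a median of 0.23. Outside the members 46.9% of 209 tested genes with it and 46.6% of 2483 without it lay above 0. Other motifs were searched on both strands of the 300 bases around each start, and a match is only a description. The ETS motif CCGGAAGT was in 3 of 21 ribosomal protein promoters (14.3%), in 26.3% of the 19 promoters of translation factors and in 4.95% of all. The YY1 motif AAGATGGC was in 14.3%, 10.5% and 3.52%, and the MYC motif CACGTG in 0 of 21, 26.3% and 8.77%. The NF-κB motifs GGGACTTTC and GGAATTTCC were in 0 of 40 member promoters each, where 0.458% and 0.56% of all promoters hold them.

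RPS6, the small subunit protein that S6 kinases phosphorylate downstream of mTOR, had the largest mean of the RPS genes. Its ratio was 0.18 and 1.57 on samples 1 and 2 at 8 h, then 1.63, -0.20 and 0.63 on samples 1, 2 and 3 at 12 h, and 1.04, -0.11 and 0.073 on samples 1, 2 and 3 at 24 h. The 3 high values are those of run 2, and the times overlapped. The mean was 0.63 ± 0.25 (SE, n = 8), with limma's adjusted p of 0.869, and 0.13 without run 2. RPS6 is read by 1 feature on the array. Without sample 2 at 8 h its mean was 0.40.

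RPS4X, another small subunit protein, was the sole RPS gene above 0 on all 8 arrays. Its ratio was 0.20 and 0.32 at 8 h, 0.96, 0.17 and 0.77 at 12 h, and 0.32, 0.0082 and 0.48 at 24 h, in the order of the sample numbers. The 12 h arrays held its highest values, and the times overlapped. The mean was 0.39 ± 0.14 (SE, n = 8), and it ran from 0.33 to 0.46 as each array was left out. The mean at 12 h was 0.63 ± 0.22, with an unadjusted p of 0.018 and limma's adjusted p of 0.9291.

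RPS25, which helps some viral and cellular messenger RNAs to initiate without a cap, had a mean of 0.38 ± 0.17 (SE, n = 8). Its ratio was 0.0035 and 1.20 at 8 h, 0.58, 0.083 and 0.81 at 12 h, and -0.33, 0.093 and 0.36 at 24 h. Both 8 h samples lay far apart, and without sample 2 at 8 h the mean was 0.18. RPS18 (0.31 ± 0.14), RPS3A (0.29 ± 0.15) and RPS16 (0.24 ± 0.14) followed. RPS3A is read by 5 features, and all 5 with a value lay above 0 on sample 3 at 24 h (0.18 to 0.47) while all 4 with a value lay below 0 on sample 1 at 24 h (-1.19 to -0.29).

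The other RPS genes tested, RPS2, RPS3, RPS9, RPS12, RPS20, RPS21 and RPS29, had means from 0.0065 to 0.16. RPS3, which lines the channel where the messenger RNA enters and is also known as a partner of the NF-κB subunit RelA, was at 0.080 ± 0.13. Several of these genes had their highest value on sample 3 at 12 h, with 0.94 for RPS21, 0.76 for RPS29 and 0.74 for RPS20. Their means over the other runs were near or below 0: in run 2 and run 3 RPS21 averaged -0.29 and -0.013, and RPS20 averaged -0.36 and 0.054. RPS15A, not tested, ranged from -0.91 to 0.30 on 7 arrays.

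Of the large subunit, RPL37 had the largest mean, 0.50 ± 0.26 (SE, n = 8). Its ratio was 0.10 and 0.62 at 8 h, 0.51, -0.054 and 0.29 at 12 h, and 2.42, 0.015 and 0.20 at 24 h. The value of 2.42 on sample 1 at 24 h stood far above the other 7, and without that array the mean was 0.24. That value came from 1 of the 2 features of RPL37. At 24 h its mean was 0.88 ± 0.42, the smallest unadjusted p of any member at that time (0.065).

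RPL22L1, the paralog of the RNA-binding ribosomal protein RPL22, was at 0.20 and 1.01 at 8 h, 1.06, 0.24 and 0.70 at 12 h, and 0.40, -0.12 and -0.13 at 24 h. All 5 values at 8 h and 12 h exceeded 0, and the 24 h values lay on both sides of it. The mean was 0.44 ± 0.16 (SE, n = 8), falling to 0.18 without run 2, and the mean at 12 h was 0.67 ± 0.25. The difference of 24 h minus 8 h was -0.55 ± 0.39, with limma's adjusted p of 0.9871. RPL22 itself had 0.16 ± 0.13, with 7 of 8 arrays above 0.

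RPL27, a protein of the large subunit, lay above 0 on every array. It was at 0.086 and 0.22 at 8 h, 0.26, 0.18 and 0.94 at 12 h, and 0.52, 0.054 and 0.49 at 24 h. Its highest value was again that of sample 3 at 12 h, and the mean of 0.32 ± 0.14 (SE, n = 8) was 0.24 without it. RPL5, a large subunit protein that with RPL11 and the small ribosomal RNA of that subunit binds the p53 regulator MDM2, had 0.30 ± 0.14, with 7 of 8 arrays above 0.

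RPL11 was not tested, because 8 h had a value on sample 2 alone. That value, 3.71, was the highest of any member on any array, and the gene was at 0.076, -0.27 and 0.71 at 12 h and -0.86, -0.43 and -0.012 at 24 h. That single array stood far above the other 6, and 1 feature reads the gene. RPL8, a core protein of the large subunit, had the lowest mean of the class, -0.30 ± 0.29, with values of -2.32 (sample 1, 12 h) and -0.89 (sample 2, 8 h), both of run 2. Its other values ran from -0.29 to 0.36.

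RPL10, RPL13, RPL21 and RPL37A had means from 0.13 to 0.20, RPL9 was at -0.024 ± 0.17, and RPLP1, a protein of the stalk that binds elongation factors, was at -0.033 ± 0.21. RPLP1 showed the split by run plainly: its average was 0.62 over run 1, -0.62 over run 2 and 0.11 over run 3. The pseudogene RPL21P106 ranged from -0.75 to 0.30 on 5 arrays. Ribosomal protein genes have many processed copies in the genome, and near-identical copies such as those of RPL21 cannot be told apart reliably on these arrays.

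Among the elongation genes, EEF1A1, EEF1B2 and EEF1D belong to the complex that brings aminoacyl-tRNA to the ribosome: EEF1A1 encodes the carrier eEF1A, and the other two encode subunits of its nucleotide exchange factor. EEF1B2 was at 0.092 and 1.58 at 8 h, 0.73, 0.025 and 0.65 at 12 h, and 0.13, 0.002 and 0.39 at 24 h. It exceeded 0 on all 8 arrays, though on 3 of them by under 0.1, and these were the 3 arrays of run 3. The mean was 0.49 ± 0.18 (SE, n = 8), and without sample 2 at 8 h it was 0.25. Its 8 h mean, 0.84 ± 0.36, had the smallest unadjusted p of any member at that time (0.045), with limma's adjusted p of 0.9994, and 24 h minus 8 h was -0.66 ± 0.46.

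EEF1A1 was at 0.18 and 0.50 at 8 h, 0.0036, 0.17 and 0.41 at 12 h, and 0.20, 0.060 and 0.36 at 24 h. It too exceeded 0 on all 8 arrays, and its times overlapped. On sample 1 at 12 h 3 of its 8 features with a value lay above 0, and on every other array most did. The mean was 0.25 ± 0.12 (SE, n = 8), and it stayed between 0.19 and 0.30 as each array was left out. EEF1D was at 0.017 and 0.017 at 8 h, 0.37, 0.043 and 0.33 at 12 h, and 0.11, -0.057 and 0.50 at 24 h, with a mean of 0.15 ± 0.12. Without sample 3 at 24 h its mean was 0.097.

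The modifiers of eEF2 had means nearer 0, and their difference from these genes was not tested. EEF2K, the kinase that inactivates eEF2, lay above 0 on 2 of 7 arrays and had a mean of 0.052 ± 0.17, with 1.07 on sample 1 at 12 h. EEF2KMT, which methylates eEF2, ranged from -1.40 to 0.85, with a mean of -0.0099 ± 0.21.

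The 31 members read by more than 1 feature allow the ratio of a gene to be set against the scatter of its own features. The median SD between the features of a gene on an array was 0.12 in run 1, 0.54 in run 2 and 0.12 in run 3. EEF1A1 has 9 features: all 9 lay above 0 on sample 1 at 8 h, from 0.11 to 0.29, and all 9 again on sample 3 at 24 h, from 0.19 to 0.47, while on sample 1 at 24 h they ran from -1.44 to 0.83. RPL13 has 11 features: all 10 with a value lay above 0 on sample 3 at 12 h (0.10 to 0.70) and all 11 on sample 3 at 24 h (0.014 to 0.41), against -2.11 to 0.91 on sample 1 at 24 h. Taken singly, 59 of 63 ribosomal protein features lay above 0 on sample 3 at 12 h and 59 of 65 on sample 3 at 24 h, and on the other arrays the share ran from 55.7% to 70.3%.

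**Figure D4:**
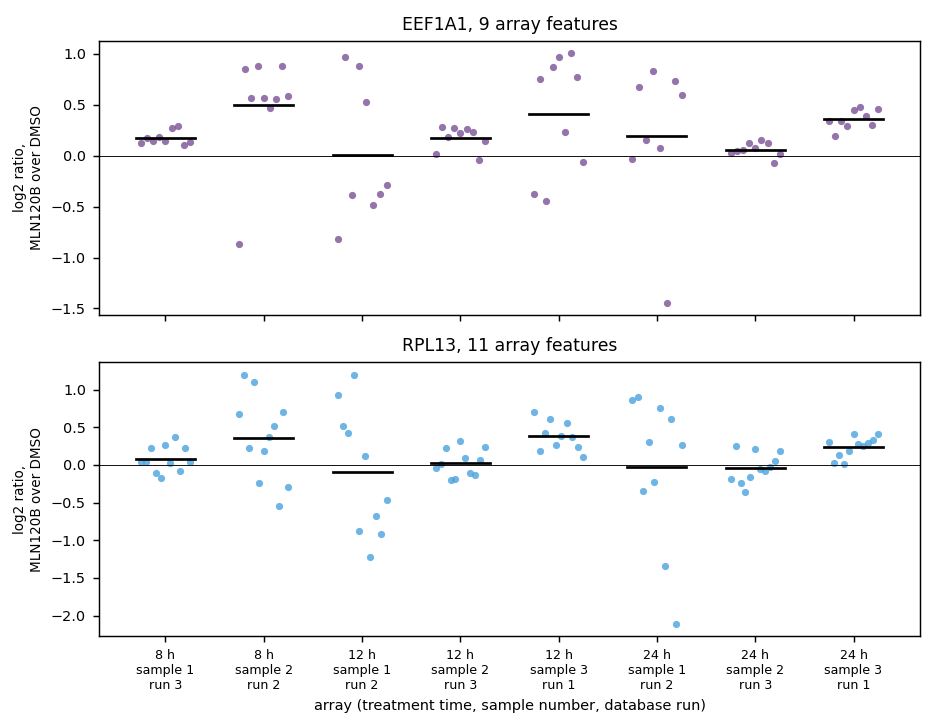
Log2 ratio (MLN120B over DMSO, array median 0) of each array feature of EEF1A1 (9 features, top) and RPL13 (11 features, bottom) on the 8 arrays; black bars are the mean of the features. The features lie close together on the arrays of run 3 and on sample 3 at 24 h, and scatter on both sides of 0 on sample 1 at 12 h and at 24 h.

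The initiation genes showed no common direction, and subunits of the same complex had estimates on both sides of 0. Of the scaffold complex eIF3, EIF3E had a mean of 0.30 ± 0.15 and EIF3C of -0.27 ± 0.18 (SE, n = 8), while EIF3B was at -0.11 ± 0.19. EIF3E was at 0.040 and 1.03 at 8 h, 0.21, -0.13 and 0.47 at 12 h, and 0.28, -0.025 and 0.28 at 24 h. Its mean was 0.13 without sample 2 at 8 h.

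EIF3C was at -0.079 and 0.27 at 8 h, -0.95, -0.097 and -0.11 at 12 h, and -1.31, -0.040 and -0.20 at 24 h. All 6 values at 12 h and 24 h lay below 0, by little on the arrays of run 3, and the times overlapped. The values on sample 1 at 12 h and at 24 h each came from 1 of its 4 features. On sample 3 at 12 h 2 of the 4 features lay above 0. Without sample 1 at 24 h the mean was -0.14. EIF3C has a near-identical copy, EIF3CL, from which it cannot be told apart reliably. EIF3H, not tested, was at 1.51 on sample 2 at 8 h and between -0.19 and 0.45 on 5 other arrays.

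EIF6 holds the large subunit apart from the small subunit until it is ready to join. It was at 0.044 and -0.99 at 8 h, -1.11, 0.034 and -0.044 at 12 h, and -0.28, 0.13 and 0.43 at 24 h. The 3 lowest values were the 3 arrays of run 2: the mean of -0.25 ± 0.19 (SE, n = 8) turned to 0.11 without that run, and it was -0.079 without sample 2 at 8 h. The direction of EIF6 therefore rests on run 2.

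EIF1AX and EIF1AY, near-identical copies on the X and the Y chromosome, encode the factor eIF1A that aids scanning for the start codon. EIF1AX was at 1.64 on sample 2 at 8 h and at 0.89 on sample 1 at 12 h, both of run 2, and between -0.25 and 0.18 on 5 other arrays. EIF1AY was at -0.029 and -2.81 at 8 h, 0.17 and -0.82 on samples 2 and 3 at 12 h, and 0.38 and -0.42 on samples 2 and 3 at 24 h. Their means of 0.36 ± 0.23 and -0.59 ± 0.36 were of opposite sign, and on sample 2 at 8 h they were the highest and the lowest of the initiation genes. Without that array the mean of EIF1AY was -0.13. A single feature reads each of the pair, and near-identical copies cannot be told apart reliably on these arrays. The ratios do not show that either gene is expressed in these cells.

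The factor eIF2 carries the initiator tRNA, and eIF2B recharges it. EIF2S1 and EIF2S2, the α and β subunits of eIF2, had means of -0.032 ± 0.15 and 0.064 ± 0.13. EIF2B2, the β subunit of eIF2B, was at 0.18 ± 0.17. EIF2B1, the α subunit, was at 0.17 and 0.17 at 8 h, 0.17, 0.15 and 0.12 at 12 h, and -0.36, -0.23 and -0.096 at 24 h. All 5 earlier values lay above 0 and all 3 values at 24 h below it, with no overlap. The difference of 24 h minus 8 h was -0.40 ± 0.28 (SE), with an unadjusted p of 0.19 and limma's adjusted p of 0.9871. EIF2B1 was the sole member of 40 (2.5%) with both 8 h arrays on one side of 0 and all 24 h arrays on the other, as 5.35% of rows were. Its 3 features did not share this course: the third read -0.44 on sample 2 at 8 h, where the others read 0.42 and 0.53. On sample 1 at 24 h the second read 0.46 and the third -1.17, and the first had no value. The second also read 0.0245 on sample 3 at 24 h, where the others lay below 0.

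The kinases that phosphorylate eIF2 and so lower initiation, EIF2AK2 and EIF2AK3, had means of -0.11 ± 0.16 and -0.12 ± 0.15. EIF2AK2, which interferon induces, split by run: its average was -0.28 over run 1, -0.36 over run 2 and 0.32 over run 3. EIF2AK3, the sensor of unfolded protein in the endoplasmic reticulum, lay above 0 on 2 of 6 arrays, and its lowest value was -0.54 on sample 3 at 12 h.

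At the cap, EIF4E, which binds it, had a mean of 0.046 ± 0.18 and EIF4E2, a cap-binding relative that can repress translation, 0.23 ± 0.21. EIF4E was at -1.27 on sample 1 at 24 h and at 0.80 on sample 1 at 12 h, both of run 2, and between -0.003 and 0.21 on the other 6. EIF4G1, the scaffold of the cap complex, was not tested, and its sign differed between runs: it was at 1.16, 1.04 and 0.34 on the arrays of run 3, at -1.38 and -1.54 on those of run 2 with a value, and at -0.26 on sample 3 at 12 h. EIF4G2, a scaffold without the cap-binding part, was at -0.15 ± 0.17, and EIF4H, a helper of the helicase eIF4A, at -0.064 ± 0.13. EIF5, which triggers GTP hydrolysis by eIF2, was at 0.20 ± 0.14.

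Other genes of translation were taken from lists of their own. Of 12 mitochondrial ribosomal protein genes 6 had a mean above 0 and the median was -0.0070. MRPL28 was at -0.48 ± 0.41 and MRPL19 at -0.21 ± 0.20. MRPL28 was at -0.068 without sample 1 of 12 h, and MRPL19 at -0.040 without sample 1 of 24 h. Of 10 tested kinases and inhibitors of translational control 7 lay above 0, with a median of 0.099. TSC1, a brake on mTOR, was at 0.61 ± 0.24 and RPS6KA5, a kinase of chromatin and transcription factors, at 0.25 ± 0.13. Without sample 2 at 8 h, where TSC1 read 1.95 and RPS6KA5 read 0.79, they were at 0.30 and 0.13. Aminoacyl-tRNA synthetases, which charge the tRNAs, had 7 of 9 above 0 and a median of 0.064, with LARS1 at -0.23 ± 0.22 and EPRS1 at 0.15 ± 0.14. LARS1 was at -0.087 without sample 3 of 12 h, -0.10 without sample 2 of 8 h and -0.14 without sample 3 of 24 h. EPRS1 was at 0.072 without sample 1 of 24 h and 0.086 without sample 1 of 8 h.

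Of 13 tested genes of ribosome biogenesis 6 lay above 0, with a median of -0.048. NCL, the nucleolar protein nucleolin, was at -0.53 ± 0.38 and PES1, a factor of large subunit assembly, at -0.39 ± 0.27, and both had their lowest values on sample 1 at 12 h, -2.54 and -1.84. Without that array they were at -0.25 and -0.19, and without sample 2 at 8 h at -0.070 and -0.13. Among other partners of the ribosome 5 of 6 lay above 0, with a median of 0.22, PABPC1, the poly(A)-binding protein, at 0.31 ± 0.41 and GSPT1, a termination factor, at 0.29 ± 0.13. The mean of PABPC1 rested on 3.54 on sample 1 at 12 h: without that array its sign turned, to -0.053. GSPT1 was at 0.19 without sample 2 at 8 h. In these 5 lists 0 of 50 genes passed limma's test after adjustment. For the mean over the 3 times 1 of the 50, TSC1, had an unadjusted p under 0.05 (0.035), against 3.4% of rows, at 12 h 1 of 50 did (3.07% of rows), and at 8 h and at 24 h 0 did (2.4% and 2.01%). The difference between any of these lists and the ribosomal protein genes was not tested.

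**Figure D5:**
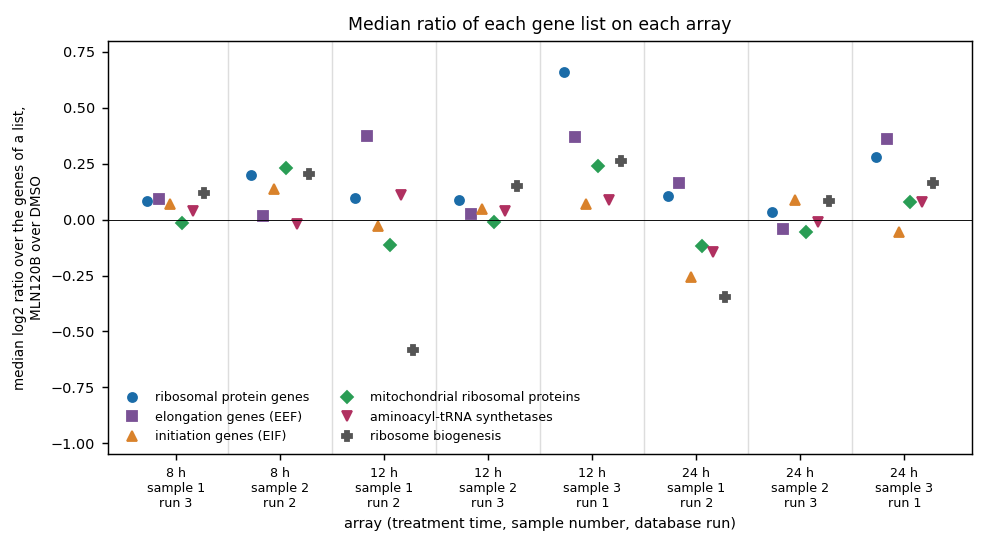
Median log2 ratio (MLN120B over DMSO, array median 0) of 6 gene lists on each of the 8 arrays, each symbol being a list. The ribosomal protein genes (blue circles) lie above 0 on all 8 arrays and highest on sample 3 at 12 h, at 0.66, while the mitochondrial ribosomal proteins and the initiation genes lie on both sides of 0.

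Cell type markers were measured beside these genes. The median of the 9 plasma cell markers lay above 0 on 7 of 8 arrays, and the mean of those medians was 0.21 ± 0.15 (SD, n = 8), by run 0.23, 0.25 and 0.15. Over the 3 times 6 of 9 lay above 0, with a median of 0.22. Medians over the T cell, myeloid, erythroid and stromal markers averaged -0.018, -0.23, 0.094 and 0.24 over the arrays, with 4, 4, 5 and 5 of 8 arrays above 0. The part of these shifts, of the database run and of the dyes in the level of the ribosomal protein genes was not tested.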

How the data were processed

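RNA from 8 samples of L363 cells was read on 8 2-colour spotted arrays, and the values used are the authors' deposited log2 ratios, 1 column per array. Base 2 and the direction are assumed, and signal over background is unknown. Not given in the sources used here: background correction, spot filters and normalization. Each array was centred on its median. Of 15246 features, 10169 had 1 gene in the platform annotation, 4 several and 5073 none; symbols were updated through RefSeq (10128 by Entrez identifier, 17 by accession, 24 left unchanged), and a gene's features were averaged. limma 3.58.1 in R 4.3.3 (lmFit, eBayes) fitted 1 mean per time to all 8 arrays, with 5 residual degrees of freedom, for 5411 rows that had 2 or more arrays with a value at every time. Tests were 2-sided against 0 (the spread of the DMSO control does not enter), with Benjamini-Hochberg adjustment over all rows and a threshold of 0.05. On simulated data with 200 changed rows the mean over the 3 times recovered 65.0% at a log2 change of 1 and 96.5% at 2, with 6 and 9 false calls. The simulated noise was independent between arrays and had the same spread on every array for a given row. The real arrays differed in spread and correlated within runs, so these shares cannot show what the test would detect here.

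Named members were the 3 of each prefix with the largest absolute mean among members with values on all 8 arrays. To these were added the 2 with the smallest p at each time and for 24 h minus 8 h, those of 1 sign on every array, and NFKBIA. Others were named to account for all members, and for these the choice followed the values. Comparison of paralog proteins was not made. The members and lists were chosen with earlier results of these data known. Sample numbers paired 12 h with 24 h, where deviations of same-numbered samples correlated at 0.20, 0.26 and 0.29, each pair within a database run. They did not pair 8 h with these times (-0.32 to -0.15), and the numbers at 8 h cross the runs. With 2 arrays at 8 h the deviations of 1 mirror those of the other, so these values are not independent. Why the numbers did not pair was not tested. Promoters came from RefSeq, GRCh38.p14. Alternatives were other centring, normalization, filters, blocks, array weights, robust variances, features on their own, and leaving out arrays or runs; leaving out arrays for genes of the pathway lists was added after seeing the data. Tables were made with pandas 2.3.3 under Python 3.11.15 and plots with matplotlib 3.10.9.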

Additional observations from a re-analysis of the deposited data

Results flagged for a closer look

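EIF2B1, for the α subunit of eIF2B, lay above 0 on both arrays at 8 h and below 0 on all 3 arrays at 24 h. The difference of 24 h minus 8 h was -0.40 ± 0.28 (SE), and it did not pass limma's test (adjusted p = 0.9871). Of all rows with 8 values, 5.35% changed side of 0 between 8 h and 24 h in this way, counting both directions. The 3 features of EIF2B1 did not share its course.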

How the results depend on the processing

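Across the alternatives the count of members past the threshold stayed at 0 of those tested for 12 h, 24 h and 24 h minus 12 h. For the mean over the 3 times, 8 h, 12 h minus 8 h and 24 h minus 8 h it ran from 0 to 1 as each array was left out: without sample 1 at 8 h, RPL11 passed on its value of 3.71 on sample 2, the sole array at 8 h, assumed to vary like the others. With sample number as a replicate block 0 members passed for the mean and the ribosomal protein median was 0.20; the block changed no other call. The ribosomal protein median stayed above 0 in every alternative, from 0.052 as deposited to 0.28 with quantile normalization, and from 0.13 to 0.23 as each array was left out; the number of genes above 0 ran from 16 to 25 of 25 over the scalings. The median of the initiation genes took both signs, from -0.048 to 0.028 as each array was left out, and moved to -0.16 in the values as deposited, where all rows lay lower too. Of 301 alternative values for 14 named genes, 300 kept the direction and side of the threshold, and EIF6 turned to 0.11 without run 2. The cause was not tested. The count says little about robustness, since these genes were chosen for large means, small p or the same sign on every array. None passed the threshold in the main fit, and genes with the same sign on every array cannot turn when arrays are left out. Unadjusted p under 0.05 was reached by 184 rows here, 427 with scale normalization, 394 with quantile normalization, 88 with the run as a random block, 638 with it as a fixed block and 65 with 1 mean per run.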
